A study of Rattus norvegicus with 24 samples.

Results

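The comparison described here set the heart septum of rats that had lost brown adipose tissue (BAT) against that of rats whose BAT had lost its sympathetic nerves. Both groups received leptin. Its members are the 6 mRNA-sequencing libraries labelled BATx with leptin (ablation) and the 6 labelled BATsx with leptin (denervation), chosen by their labels, so 12 of the 24 libraries of the study. All animals were Sprague-Dawley rats with a cannula into a cerebral ventricle, through which the infusion ran after cardiac ischemia-reperfusion injury (a temporary block of the blood supply to heart muscle), and the septum was labelled day 28. The other 12 libraries came from rats with intact BAT, 6 given leptin and 6 given vehicle. No group with ablation or denervation received vehicle, so what the operations do without leptin was not measured. Each library carries its own rat number. Levels are in CPM, the counts of a gene scaled to a common library size. The labels used here give neither the age or sex of the rats nor the extent of the ablation or denervation.

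Brown adipose tissue burns fatty acids to make heat, and sympathetic nerves that release noradrenaline onto its adrenergic receptors switch that activity on. Leptin, a hormone made by white fat cells, acts on hypothalamic neurons that raise this sympathetic drive. Ablation takes away the heat production, the secreted factors and the extracellular vesicles of the depot together, whereas denervation leaves the depot in place without that drive. The comparison asks where these losses differ in the septum.

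No gene passed the test between the operations. Of 17347 genes tested between ablation and denervation, 0 passed an adjusted p of 0.05 (0% called, edgeR quasi-likelihood test with all 24 libraries in the model and Benjamini-Hochberg adjustment), and the smallest adjusted p was 0.890. At an unadjusted p below 0.05 there were 778 genes (4.48%), 540 higher (3.11%) and 238 lower (1.37%) after ablation, where evenly spread p values would give 867. This count moved with single libraries. It was 450 without ablation replicate 3, 1247 without ablation replicate 5, 1258 without denervation replicate 1 and 2156 without ablation replicate 6, where 918 were higher and 1238 lower. The median size of the difference was 0.239 on the log2 scale, less than its median standard error of 0.325. The sign of the difference was about evenly divided, with 51.1% of genes higher after ablation. The levels of all 6 ablation libraries lay on 1 side of all 6 denervation libraries for 33 genes (0.19%).

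A large difference between libraries ran across both groups. Along the first principal component, which held 45.9% of the variance, the 7 libraries with the highest rat numbers (the high-numbered set) lay at 83.5 to 117 and the 17 of low-numbered rats at -81.1 to -6.34. The ablation group held 1 library of the high-numbered set and the denervation group held 2. The sets were told apart on this component in these same libraries, and the labels do not say what a rat number stands for. With the set entered as a 2-level term, again 0 of 17347 genes passed (0% called, edgeR, smallest adjusted p 0.182), while 1482 genes (8.54%) had an unadjusted p below 0.05, 821 higher (4.73%) and 661 lower (3.81%) after ablation. The term lowered the median standard error to 0.206 and the median size of the difference to 0.174. The low-numbered rats alone, 5 after ablation and 4 after denervation, were tested over 17890 genes. Of these genes 0 passed (edgeR, smallest adjusted p 0.0504) and 1388 had an unadjusted p below 0.05.

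**Figure D1:**
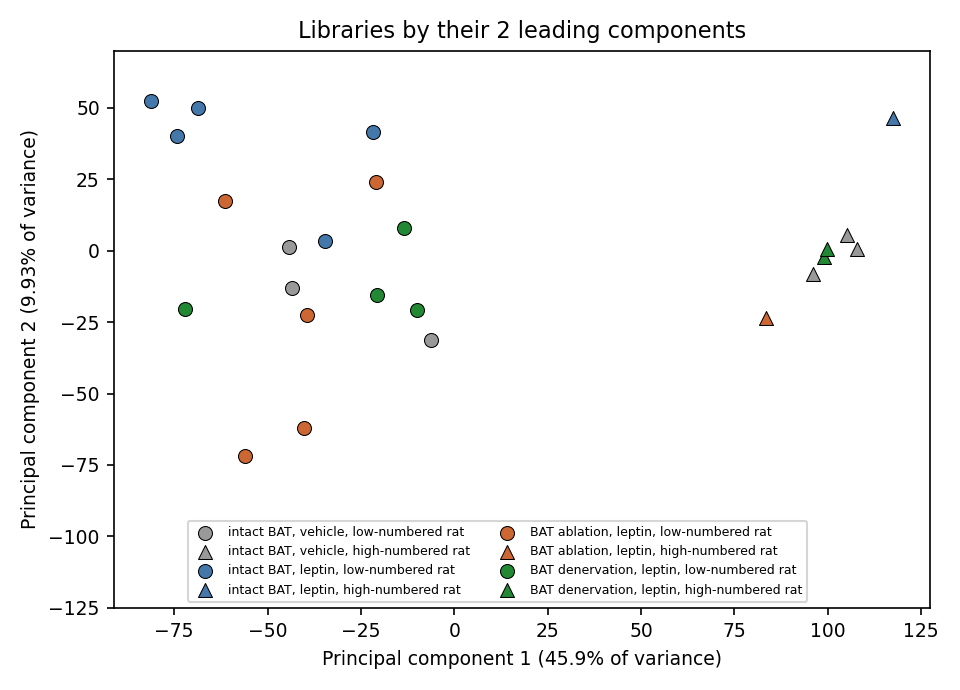
Each point is 1 of the 24 libraries, placed by its first and second principal components of log2 CPM, with colour for the group and triangles for the high-numbered set. The 7 triangles lie at 83.5 to 117 on the horizontal axis, and the ablation libraries spread farther on the vertical axis (-71.7 to 23.9) than the denervation libraries (-20.6 to 7.83).

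The second component, with 9.93% of the variance, ran from -71.7 to 23.9 over the ablation libraries and from -20.6 to 7.83 over the denervation libraries, so the denervation range lay inside that of ablation. The libraries of intact BAT with leptin lay at 3.31 to 52.5 and those of vehicle at -31.1 to 5.64. Ablation replicates 1 and 3 were the 2 lowest of all libraries, at -71.7 and -62.1. Among low-numbered rats, the SD of log2 CPM between libraries had a median over genes of 0.384 after ablation (n = 5) and of 0.310 after denervation (n = 4), and 61.2% of the genes had the larger SD after ablation. Intact BAT with leptin had 0.375 among such rats (n = 5), and over all 6 libraries the medians were 0.514 after ablation and 0.512 after denervation. This spread is a description of these libraries and was not tested.

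The count of 0 depended on the model and on how the rat number was treated. With the rat number as a linear covariate, 3392 of 17347 genes passed in edgeR, 1705 higher and 1687 lower after ablation. The mean rat number was 150.3 after ablation and 118.3 after denervation. With both the 2-level set and the linear number in the model, 2 of 17347 genes passed. With the linear number among the low-numbered rats alone, 1 of 17890 genes passed. The part of the rat number in the 3392 calls was not tested further, and rat numbers in the low set averaged 143.2 after ablation and 89.3 after denervation. Without the rat number, limma-voom with sample quality weights called 50 of 17347 genes and DESeq2 called 0. With the set DESeq2 called 21 of 17347 and limma-voom 0. With the set in edgeR, 24 of 17540 genes passed without ablation replicate 5 and 9 of 17563 without ablation replicate 6.

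How large a difference could have gone unseen varied with the level of the gene. For 9313 genes (53.7%) the 95% interval of the difference lay wholly within a 2-fold change in either direction, and with the rat-number set in the model this held for 12422 genes (71.6%). The closest limits were on genes with a mean of 10 to 100 CPM. Of those 7454 genes, 76.7% had an interval within 2-fold with the groups alone and 95.1% with the set in the model. Of the 3962 genes under 1 CPM the shares were 8.99% and 15.5%, so for most weakly expressed genes a 2-fold difference in at least 1 direction lay within the interval. Within 1.5-fold lay the intervals of 24.1% of all genes with the groups alone and 46.3% with the set. A missed threshold therefore does not show that a gene was alike in both groups, and the interval gives the limit gene by gene.

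**Figure D2:**
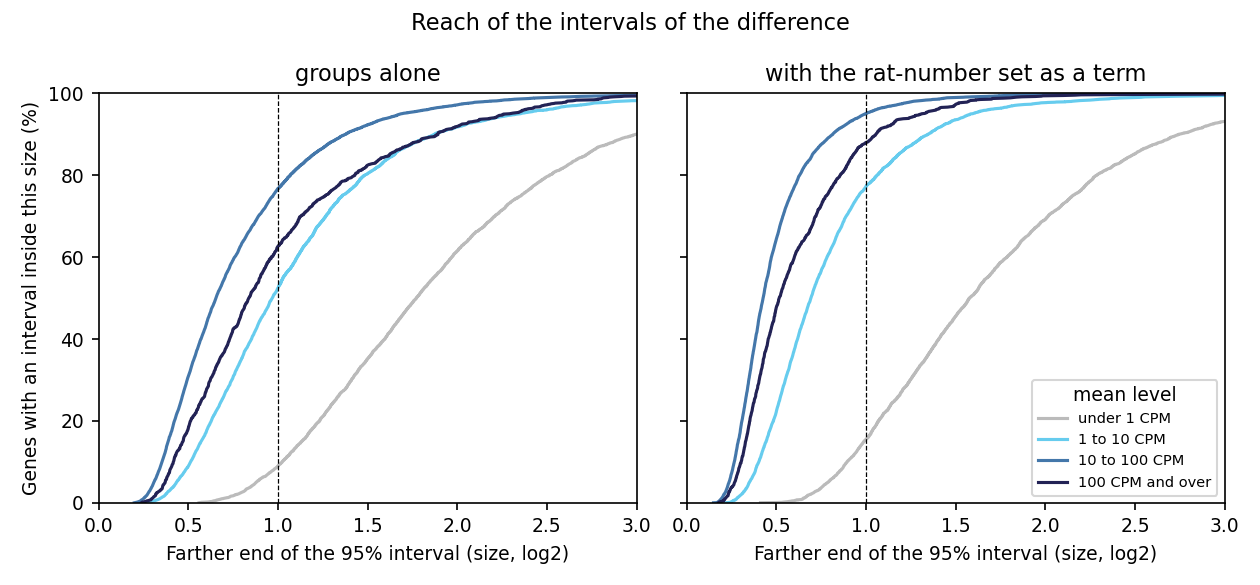
For each class of mean level, the curve gives the percentage of genes (vertical axis) whose 95% interval of the ablation minus denervation difference lies inside a given size on the log2 scale (horizontal axis), with the dashed line at 2-fold. At that line the class of 10 to 100 CPM reaches 76.7% with the groups alone and 95.1% with the rat-number set as a term, and the class under 1 CPM reaches 8.99% and 15.5%.

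Against the shared group of intact BAT with leptin, the operations gave unequal counts. After ablation 525 genes passed (3.03% called), 323 higher (1.86%) and 202 lower (1.16%), and after denervation 0 passed (0% called, edgeR). At an unadjusted p below 0.05 there were 3118 (18%) after ablation and 2836 (16.3%) after denervation. With the rat-number set in the model 3219 passed after ablation (18.6% called), 1673 higher (9.64%) and 1546 lower (8.91%), and 1154 after denervation (6.65% called), 422 higher (2.43%) and 732 lower (4.22%). Both comparisons use the same control libraries, so the genes that passed are described by their own values in each. The 323 genes that rose after ablation had a median log2 difference from intact BAT of 0.97 after ablation and of 0.58 after denervation, and the difference between the operations had a median of 0.31. The 202 genes that fell had medians of -0.77 and -0.57, and -0.17 between the operations.

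Tested directly, 0 of these 525 genes differed between ablation and denervation at an adjusted p of 0.05 (edgeR). At an unadjusted p below 0.05 there were 92 of the 323 (28.5%) and 31 of the 202 (15.3%), beside 4.48% of all genes. With the set in the model there were 358 of 1673 (21.4%) and 232 of 1546 (15.0%), beside 8.54% of all genes. These genes were chosen for being far from the controls after ablation, so an ablation value farther out than the denervation value is built into the choice. The 422 genes that rose and the 732 that fell after denervation with the set in the model were chosen the other way round. Their medians after denervation were 0.64 and -0.59, their medians after ablation were 0.66 and -0.57, and between the operations the medians were 0.02 and 0.03. Of these lists 42 (9.95%) and 55 (7.51%) had an unadjusted p below 0.05 between the operations, near the 8.54% of all genes. The unequal counts against intact BAT are therefore no test of a difference between the operations, and the direct test gave 0. Against vehicle with intact BAT, neither operation gave a gene at an adjusted p of 0.05 in either model (0% called for each). With the groups alone there were 1892 genes (10.9%) after ablation and 348 (2.01%) after denervation at an unadjusted p below 0.05, and with the set in the model 1487 (8.57%) and 659 (3.8%) (edgeR).

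The mitochondrial chromosome carries genes for subunits of the respiratory chain, for the ribosomal RNAs of the mitochondrion and for its transfer RNAs, and heart muscle is rich in mitochondria. Mitochondrial reads made up 23.1% to 45.9% of an ablation library, with a median of 35%, and 23.7% to 29.8% of a denervation library, with a median of 26.5%. Of the 6 ablation libraries 4 lay above every denervation library, but ablation replicate 1 lay below all of them. The mean was 34.7% ± 8.24 (SD, n = 6) after ablation and 26.7% ± 1.97 (SD, n = 6) after denervation. The difference of 7.98 percentage points had an exact two-sided permutation p of 0.0498, and of 0.0996 when adjusted over the 2 library measures compared, where the smallest p the design allows is 0.00216.

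The size of this difference held more closely than its p. Leaving out 1 library at a time gave differences of 5.74 to 10.3 points, with an exact permutation p below 0.05 only without ablation replicate 1 (0.00433) or ablation replicate 6 (0.0346). Among low-numbered rats the difference was 9.25 points (exact permutation p = 0.103, n = 5 and 4). In the high-numbered set the 1 ablation library had 28.9% and the 2 denervation libraries had 26.4% and 27.5%. Libraries of intact BAT had 33.3% to 36.6% with vehicle and 24.4% to 41.1% with leptin, so every denervation library lay below every vehicle library.

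**Figure D3:**
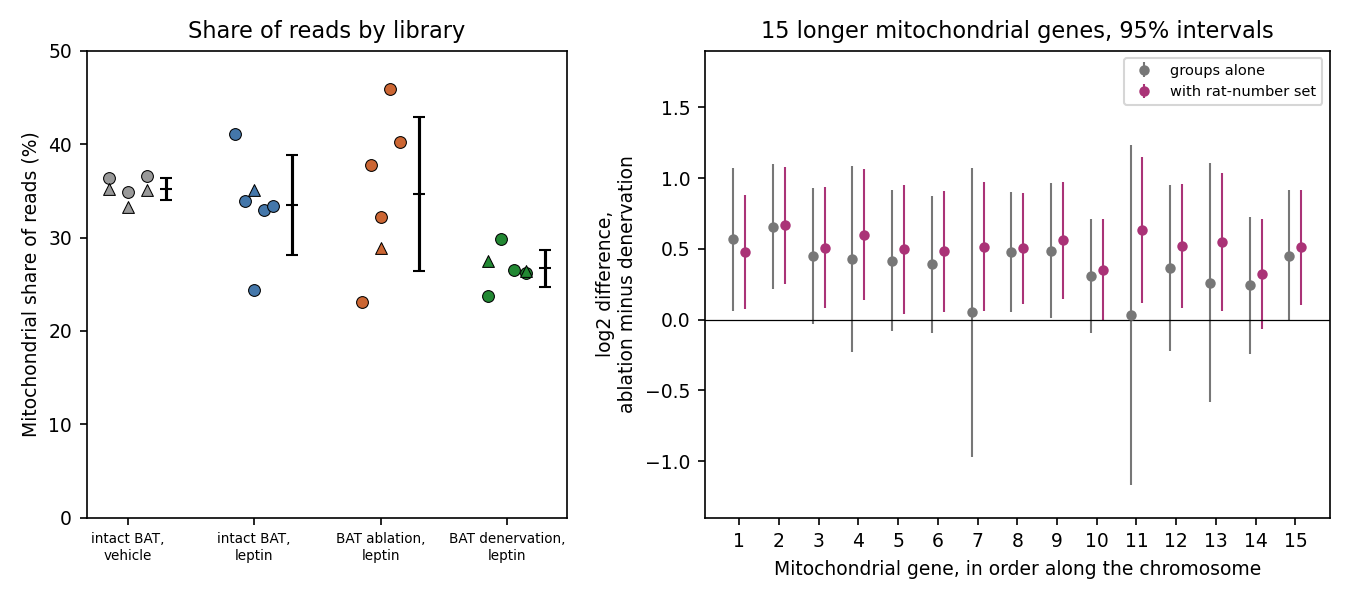
On the left, each point is the percentage of a library's reads on the mitochondrial chromosome, by group, with triangles for the high-numbered set and the bar giving mean and SD (n = 6). On the right, each point is the log2 difference, ablation minus denervation, of 1 of the 15 longer mitochondrial genes with its 95% interval. All 15 points lie above 0 in both models, at 0.03 to 0.66 with the groups alone and at 0.32 to 0.67 with the rat-number set.

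The mitochondrial genes mostly shared a sign, but none passed the test. Of the 37 annotated, 22 were tested, and 20 of these were higher after ablation with a median log2 difference of 0.42, beside 51.1% of all genes and a median of 0.01. All 15 annotated genes of 204 bp and longer were tested and all 15 were higher, by 0.03 to 0.66, and by 0.32 to 0.67 with the rat-number set in the model. At an unadjusted p below 0.05 there were 4 of the 15 with the groups alone, where all genes gave 4.48%, and 13 with the set, where all genes gave 8.54%, and 0 passed adjustment in either model (edgeR). Of the 22 shorter genes (60 to 72 bp where tested), 7 were tested and 5 were higher. The median of the 21 other chromosomes, the Y chromosome aside, ran from -0.02 to 0.05. These genes share each library's mitochondrial content, so they are not independent of each other or of the read share. A smaller amount of mitochondrial RNA per cell and fewer cells rich in mitochondria cannot be told apart in bulk tissue.

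The mitochondrial gene with the smallest p spans MT:1094-2664 on mRatBN7.2 (plus strand, 1571 bp). It had 1844, 2889 and 3979 CPM (lowest, median and highest) after ablation and 1445, 1842 and 2045 CPM after denervation. The lowest ablation libraries overlapped the highest denervation libraries, and the log2 difference was 0.66 ± 0.21 (SE, edgeR adjusted p = 0.890) and 0.67 ± 0.20 with the set in the model (adjusted p = 0.490). The gene was chosen by its p between the operations, so a low denervation level is partly built into its comparisons with intact BAT. Vehicle had 2238, 2609 and 4143 CPM, also above all of the denervation libraries. Denervation minus vehicle was -0.63 ± 0.21 and did not pass (edgeR adjusted p = 0.9998). Intact BAT with leptin stood at 2860, 3206 and 4345 CPM, every library above all of the denervation libraries. How many of all genes do the same was not counted for intact BAT with leptin. Against that group the difference was -0.89 ± 0.21 after denervation (edgeR adjusted p = 0.117, and 0.0225 with the set in the model) and -0.23 ± 0.21 after ablation (adjusted p = 0.619, and 0.429 with the set).

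The most abundant mitochondrial gene, at MT:5323-6867 (plus strand, 1545 bp), had 58399, 107823 and 154485 CPM after ablation and 51358, 84481 and 104524 CPM after denervation. Its ranges overlapped over most of the denervation values. The log2 difference was 0.42 ± 0.24 with the groups alone and 0.50 ± 0.22 with the set (edgeR adjusted p = 0.890 and 0.572).

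The most abundant nuclear genes mostly had the opposite sign. This class, chosen after its values were seen and so given without a test, holds the 44 nuclear genes with a mean of at least 1000 CPM over the 12 libraries. Of the 44, 33 were lower after ablation, beside 8488 of all 17347 genes. Their median log2 difference was -0.53 (range -0.98 to 1.19, median standard error 0.43), beside 0.01 over all genes. With the rat-number set in the model 33 were again lower, with a median of -0.40. At an unadjusted p below 0.05 (edgeR) there were 4 of the 44 with the groups alone, 2 of them lower, beside 4.48% of all genes. With the set there were 14, 11 of them lower, beside 8.54% of all genes. In either model 0 of the 44 passed adjustment. Leaving the mitochondrial genes out of library sizes and scaling left the medians at -0.53 and -0.40.

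Together these 44 genes took 9.53%, 14.9% and 21.0% of the nuclear reads (lowest, median and highest) after ablation and 15.6%, 20.3% and 22.7% after denervation. Among low-numbered rats the class took 9.53% to 19.3% after ablation and 15.6% to 20.9% after denervation, and in the high-numbered set 21.0% against 22.5% and 22.7%. The rat-number set therefore moved with this share, and intact BAT with leptin spanned 11.8% to 23.0%.

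**Figure D4:**
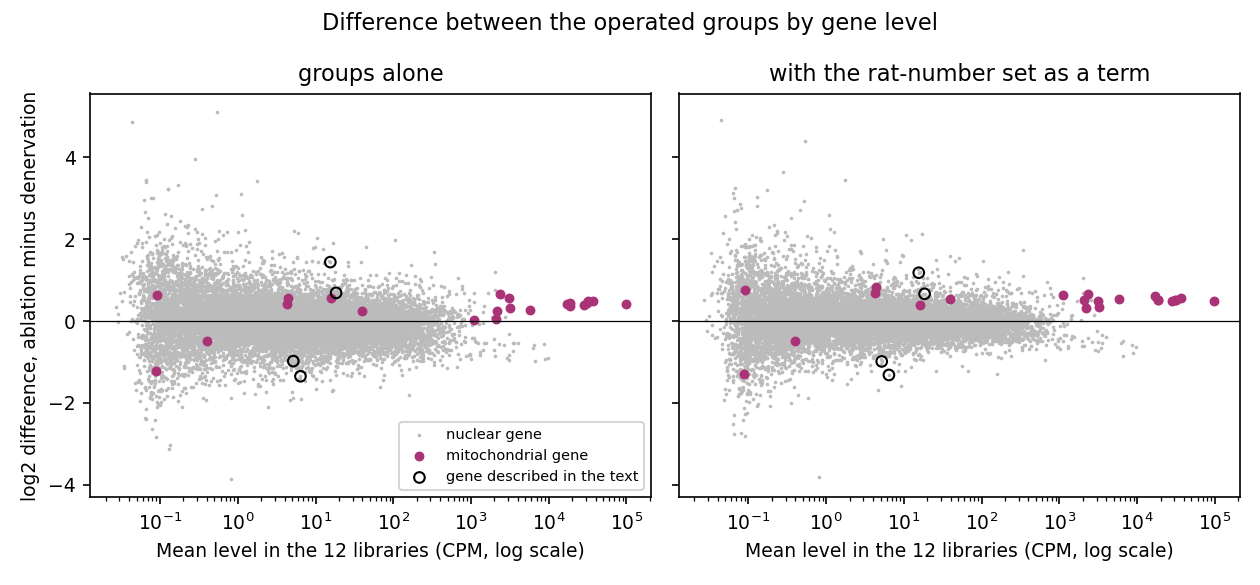
Each point is a gene, placed by its mean CPM over the 12 libraries (horizontal, log scale) and its log2 difference, ablation minus denervation (vertical), with mitochondrial genes in purple and the 4 genes described by ID circled. Among the most abundant genes the mitochondrial ones lie above 0, and 33 of the 44 nuclear genes with a mean of at least 1000 CPM lie below 0.

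Gene length did not divide the groups beyond their spread. For each library a length gradient was taken as the level (median log2 CPM, each gene centred on its mean) of its longest genes minus that of its shortest, in 5 classes. It was -0.425 to 0.341 after ablation and -0.314 to 0.384 after denervation. The group means differed by -0.109 (exact two-sided permutation p = 0.548, n = 6 and 6), and among low-numbered rats by -0.00945 (exact permutation p = 0.944). The 3 high-numbered libraries of both groups lay at 0.334 to 0.384 and the 9 others at -0.425 to 0.0573, so the gradient followed the rat-number set.

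For 4 genes the values are given library by library. Among nuclear genes with a mean of at least 1 CPM, they are those with the smallest p in each direction. The first pair was taken with the groups alone and the second with the set in the model. They were chosen for these values, so their separation is a description. The same ablation and denervation values enter the comparisons with intact BAT. Those comparisons are therefore no independent test of which operation moved a gene. The files pair none of the gene IDs with a symbol, so what the genes encode is not stated. The call on each depends on the model. All 4 passed with the linear rat number in edgeR (adjusted p 0.00840 to 0.0220) and with DESeq2 and the set (adjusted p 0.00101 to 0.0375).

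ENSRNOG00000054017 lies on chromosome 17 (chr17:42480313-42485370 on mRatBN7.2, plus strand, exonic length 2957 bp), where 1 other annotated gene overlaps it. Its level was 14.4, 23.4 and 29.4 CPM (lowest, median and highest) after ablation and 12.3, 14.4 and 15.1 CPM after denervation. In 5 of the 6 ablation libraries it stood above every denervation library, the sixth being the high-numbered rat at 14.4 CPM. The log2 difference was 0.69 ± 0.16 (SE, 95% interval 0.36 to 1.02, edgeR adjusted p = 0.890), and 0.67 ± 0.15 with the set in the model (adjusted p = 0.384). Against intact BAT with leptin (11.8, 14.0 and 20.7 CPM) it differed by 0.60 ± 0.16 after ablation (edgeR adjusted p = 0.0436). After denervation the difference was -0.09 ± 0.16 (edgeR adjusted p = 0.787). In the high-numbered set the order was reversed, with 14.4 CPM after ablation and 20.7 CPM for intact BAT with leptin. The denervation libraries of that set had 13.8 and 12.3 CPM. The difference between the operations passed in limma-voom without the set (adjusted p = 0.0124) and in edgeR with the set and without ablation replicate 6 (adjusted p = 0.0384).

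ENSRNOG00000004964 lies on chromosome 7 (chr7:996225-1015525, minus strand, 4311 bp) and no annotated gene overlaps it. It had 2.40, 3.35 and 5.11 CPM after ablation and 2.74, 7.45 and 9.77 CPM after denervation. Among low-numbered rats the groups did not overlap, at 2.40 to 5.11 against 7.02 to 9.77 CPM, as was the case for 339 of the 17347 genes (1.95%). In the high-numbered set ablation stood at 3.63 CPM, between the denervation libraries at 2.74 and 4.84 CPM. The log2 difference was -0.98 ± 0.25 (SE, 95% interval -1.50 to -0.46, edgeR adjusted p = 0.890), and -0.99 ± 0.21 with the set in the model (adjusted p = 0.384). Against intact BAT with leptin (2.81, 3.08 and 3.72 CPM) the difference after denervation was 1.12 ± 0.25 (edgeR adjusted p = 0.117, and 0.0145 with the set). After ablation it was 0.14 ± 0.25 (edgeR adjusted p = 0.835). Vehicle had 3.22, 4.90 and 6.05 CPM. Against vehicle the difference was -0.41 ± 0.25 after ablation and 0.57 ± 0.25 after denervation, and neither passed (edgeR). The difference between the operations passed in limma-voom without the set (adjusted p = 0.0316).

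ENSRNOG00000046216 lies on chromosome 10 (chr10:100156238-100182647, plus strand, 2384 bp), and 1 other annotated gene overlaps it. It had 7.68, 21.8 and 45.5 CPM after ablation and 2.62, 8.90 and 14.1 CPM after denervation. The groups overlapped between 7.68 and 14.1 CPM, and in every group the libraries of the high-numbered set were the lowest. The log2 difference was 1.44 ± 0.55 (SE, edgeR adjusted p = 0.890) with the groups alone and 1.18 ± 0.26 with the set in the model (adjusted p = 0.384). With both the set and the linear rat number in the model it was 1.47 ± 0.25 (edgeR adjusted p = 0.0474), and the gene was then 1 of the 2 that passed, beside a gene at chr18:52539917-52554461. It also passed in edgeR with the set and without ablation replicate 5 (adjusted p = 0.0301). Against intact BAT with leptin, with the set in the model, it differed by 0.79 ± 0.25 after ablation (edgeR adjusted p = 0.0310). After denervation the difference was -0.39 ± 0.26 (adjusted p = 0.339). With the groups alone neither passed (edgeR adjusted p = 0.556 and 0.493).

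ENSRNOG00000011180 lies on chromosome 19 (chr19:14624225-14642318, minus strand, 2665 bp) with no overlapping gene. It had 0.725, 2.06 and 12.8 CPM after ablation and 3.83, 6.65 and 16.8 CPM after denervation. Among low-numbered rats the ablation libraries (0.725 to 2.39 CPM) all lay under the denervation libraries (3.83 to 8.42 CPM). Such groups did not overlap for 339 of the 17347 genes (1.95%). In the high-numbered set 12.8 CPM stood under 16.5 and 16.8 CPM. The log2 difference was -1.35 ± 0.60 (SE, edgeR adjusted p = 0.890) with the groups alone, and with the set in the model it was -1.32 ± 0.25, with the smallest adjusted p of that model at 0.182. It passed in edgeR with the linear rat number among low-numbered rats (adjusted p = 0.0433), and with the set without ablation replicate 5 (0.0423) or 6 (0.0294). Against intact BAT with leptin, with the set in the model, it differed by 0.90 ± 0.25 after denervation (edgeR adjusted p = 0.0353). After ablation the difference was -0.41 ± 0.25 (adjusted p = 0.243). With the groups alone neither passed (edgeR adjusted p = 0.289 and 0.985). Vehicle (3.44, 7.97 and 17.3 CPM) and intact BAT with leptin (2.25, 3.03 and 8.27 CPM) showed the same higher level in high-numbered rats.

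**Figure D5:**
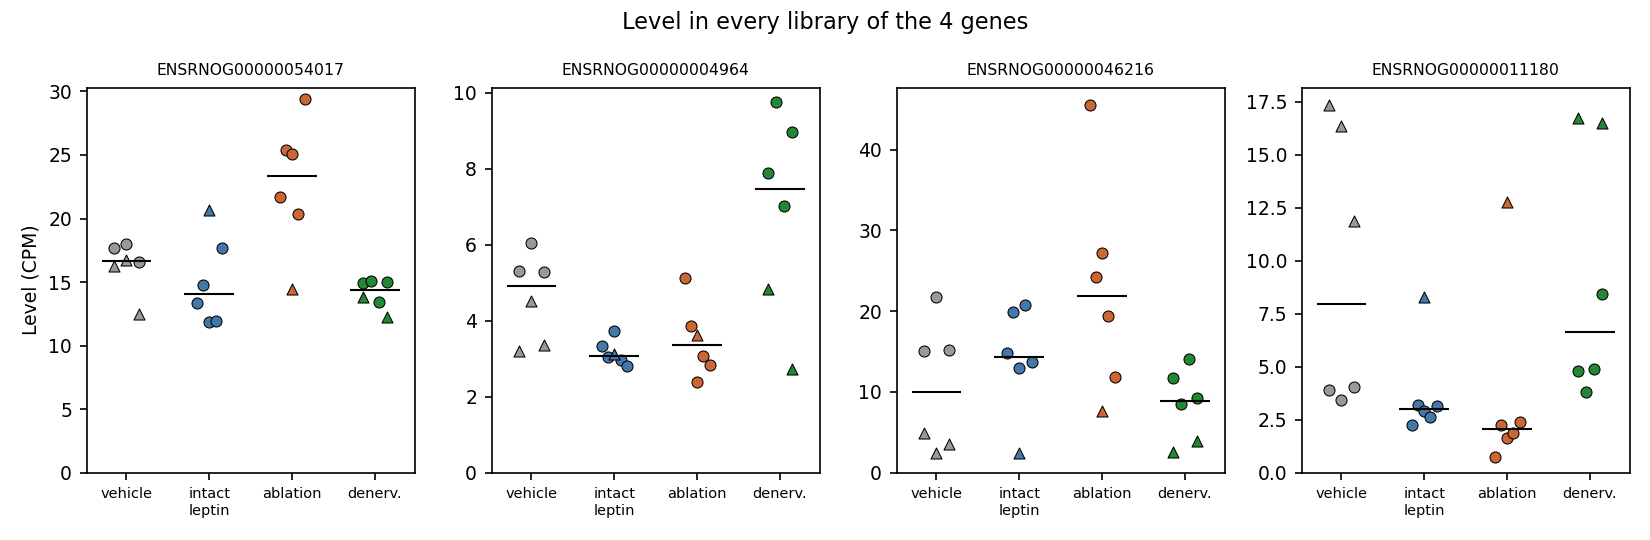
Each panel gives the CPM of 1 gene in every library of the 4 groups, with lines at the medians and triangles for the high-numbered set. For ENSRNOG00000004964 and ENSRNOG00000011180 the ablation circles lie under all of the denervation circles, and for ENSRNOG00000011180 the triangles of every group lie above its circles.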

How the data were processed

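Messenger RNA from the septum of 24 rats was read from both ends, per the labels' protocols. The values the authors deposited are whole-number read counts for 30562 genes. The submitters' processing notes name STAR 2.7.10a, featureCounts 2.0.2, DESeq2 and R 4.4.1. Per the file headers, counting used featureCounts 2.0.6 on Ensembl 113 (mRatBN7.2) without a strand option, so overlapping and antisense genes cannot be separated. Counts of 2 and 4 (19013 and 12355 times) were more common than counts of 1 and 3 (5161 and 3060), which is what counting each mate gives, so a count stands for a read and not a fragment. Another 5 count columns, of no listed sample, were left out. Library totals ran from 71587993 to 122910706, and no library repeated another.

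The filterByExpr function kept 17347 genes. These were scaled (TMM) and fitted with the robust quasi-likelihood model of edgeR 4.0.16 (R 4.3.3) over all 24 libraries, with calls at a Benjamini-Hochberg adjusted p of 0.05. Standard errors came from the F statistic, and CPM uses the scaled library sizes. Log2 CPM for principal components had a prior count of 2. Exact permutation tests (two-sided) were used for measures of whole libraries. Alternatives used DESeq2 1.42.0 and limma 3.58.1, other scalings, filters and rat-number terms, and each library left out.

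The groups compared, the rat-number sets and the gene lists were chosen with earlier results of these data known. Gene lists, cell type markers and the rule for named genes had been set by symbol. Since 0 of the IDs could be matched to a symbol, they were not run, the tissue was not checked against markers, and no sequence is printed. Instead 4 IDs, 1 in each direction per model, are named by the smallest p among nuclear genes with a mean of at least 1 CPM, which was decided with the values in view. Same-numbered replicates were not treated as pairs, since only 3 of the 6 numbers had deviations correlated above 0.1.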

Additional observations from a re-analysis of the deposited data

Results flagged for a closer look

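Over both operated groups, 46 groups of 6 values were examined, and 2 held a library far from the other 5. Both times it was ablation replicate 6, the only ablation library of the high-numbered set. That set was told apart on the first principal component itself, and ENSRNOG00000011180 was higher in high-numbered rats of every group. Neither flag is therefore independent of the set. The mitochondrial values among the 46 are related to each other, so no rate by chance is set beside the 2. On the first principal component ablation replicate 6 lay at 83.5, with the nearest other ablation library at -21.0. This was a gap of 0.721 of the group's range and above Dixon's 95% limit for 6 samples. For ENSRNOG00000011180 it had 12.8 CPM, with the nearest other ablation library at 2.39 CPM, a gap of 0.862 of the range. Without this library the log2 difference of ENSRNOG00000011180 was -2.37 with the groups alone (edgeR adjusted p = 0.397) and -1.58 with the rat-number set in the model (edgeR adjusted p = 0.0294).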

How the results depend on the processing

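The count of 0 genes held under 12 of 17 other settings and with each of the 12 libraries left out while the groups stood alone. These settings included DESeq2 (0 genes, 1036 at an unadjusted p below 0.05), other scaling, no filter, the 12 libraries alone and low-numbered rats. It did not hold with the linear rat number (3392 genes), limma-voom with sample quality weights (50) or DESeq2 with the rat-number set (21). Nor did it hold with the set and the linear number (2) or the linear number among low-numbered rats (1). The last 3 of these were chosen after seeing the data. So were limma-voom with the set and DESeq2 size factors with the set, which gave 0 genes each. The cause of the changed counts was not tested. With the set in edgeR, leaving out 1 library gave 0 to 24 genes: 24 without ablation replicate 5 (2 higher, 22 lower), 9 without ablation replicate 6 (5 higher, 4 lower) and 0 for the 10 others. The 24 and the 9 shared 2 genes, ENSRNOG00000011180 and the gene at chr3:167418565-167426751. Without ablation replicate 6 the share of higher genes at an unadjusted p below 0.05 was 42.6%, beside 69.4%. With the replicate number as a block 0 genes passed (1716 unadjusted). The mitochondrial difference was 9.25 points among low-numbered rats and 5.74 to 10.3 with a library left out, and 10 of those 12 lost p below 0.05. The 4 genes named by ID and the median of the 15 mitochondrial genes kept their sign under every setting run. The 4 genes were chosen by their p in these same libraries, so their kept sign is no independent check. The calls on the 4 genes did not stay the same: all 4 passed with the linear rat number and with DESeq2 and the set.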
